A study of Mus musculus with 2 samples.

Results

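The DOCK family of exchange factors and their ELMO partners were followed as 9 genes (Dock1, Dock2, Dock4, Dock5, Dock8, Dock10, Dock11, Elmo1 and Elmo2) of the 32285 in the single-cell tables, each matched by its symbol to 1 gene identifier. CD45+ cells were sorted from dissociated brains of 12-week-old mice, tagged with a lipid-bound oligonucleotide per mouse, pooled into 1 library and sequenced from the 3′ ends of transcripts. The 4 Arpc4ΔCx3cr1 mice carried the Tg(Cx3cr1-Cre) transgene and 2 floxed alleles of Arpc4, a subunit of the actin-branching Arp2/3 complex. The 4 control mice were Arpc4 fl/fl littermates without Cre, so the floxed alleles were common to both groups, and the transgene and the deletion cannot be told apart here. The Cx3cr1 promoter is active in brain myeloid cells as a whole, CNS-associated macrophages (CAMs) as well as microglia. According to the methods of the study, the controls were male and 1 Arpc4ΔCx3cr1 mouse was female, which the study left out of its downstream analysis. All 8 mice are used here. Here Arpc4ΔCx3cr1 mouse 1 alone had high Xist (1439.9 normalised CPM, against 3.54 to 14.0 in the other 7 mice) and low Uty (5.73, against 95.9 to 160.5), so values that this mouse moved most are also given without it.

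DOCK proteins load GTP onto the small GTPases Rac and Cdc42, which in turn switch on the branching and bundling of actin filaments. DOCK1, DOCK2 and DOCK5 act on Rac and work in a complex with an ELMO scaffold, which holds them at the membrane, and DOCK1 with ELMO1 drives the uptake of apoptotic cells by phagocytes. DOCK4 acts on Rac as well, whereas DOCK8, DOCK10 and DOCK11 are known mainly as activators of Cdc42, so "Rac activators" describes only a part of the list. Rac signals to the Arp2/3 complex through the WAVE regulatory complex, and Cdc42 does so through WASP.

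The 8 mice gave 19864 cells, of which 19863 passed the filters, with 5251527 to 12878691 UMIs (unique molecular identifiers, each 1 counted transcript) per mouse and median depths of 3608 to 4364 UMIs per cell. No barcode was shared between mice (0 of the 19864). Marker genes gave 16900 microglia-like cells, 410 CAM-like, 348 monocyte-like, 309 T cell-like, 94 proliferating, 81 B cell-like and 80 granulocyte-like cells, while 1507 cells of low UMI count and 134 of mixed markers stayed unnamed. Arpc4 had 216 to 236 normalised CPM in microglia-like cells of control mice and 138 to 153 in Arpc4ΔCx3cr1 mice, 1.54-fold lower. Empty droplets of the pool (at most 100 UMIs) held Arpc4 at 229 CPM. This was near the 233 ± 7.13 CPM of control mice and above the 139.8 ± 7.28 of Arpc4ΔCx3cr1 mice without TMM scaling (SD, n = 4). The level in the latter is thus not read as expression. The floxed exons are not given in the sources used here, so the counted 3′ ends may lie outside the deleted part. Arpc4 also overlaps Ttll3 on the same strand, so counts of that pair may be split between them. In CAM-like cells Arpc4 was at 191 ± 24.0 CPM in control mice and 225 ± 17.1 in Arpc4ΔCx3cr1 mice (SD, n = 4), and its genotype difference differed from that in microglia-like cells by 0.78 ± 0.24 (log2 ± SE, adjusted p = 0.0223, edgeR). The call was lost without control mouse 2 (0.73, adjusted p = 0.0947), control mouse 4 (0.77, adjusted p = 0.0734) or Arpc4ΔCx3cr1 mouse 1 (0.72, adjusted p = 0.0793). Both means of Arpc4 in CAM-like cells lay below the 229 CPM of the empty droplets as well.

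The upstream sequences of Elmo1, Dock10 and Dock2 are shown because these members had the largest differences in microglia-like cells. They are RefSeq windows of GRCm38.p6, written 5′ to 3′ along the gene, with the letters GAGGAA in capitals, a core recognised by the myeloid factor PU.1. On the other strand this motif reads TTCCTC, also in capitals. The windows lie at chr13:20090257-20090506 (+) for Elmo1 upstream, chr13:20090527-20090556 (+) for the stretch after the same Elmo1 start, chr1:80758554-80758803 (-) for Dock10 and chr11:34783906-34784155 (-) for Dock2.
Elmo1 upstream: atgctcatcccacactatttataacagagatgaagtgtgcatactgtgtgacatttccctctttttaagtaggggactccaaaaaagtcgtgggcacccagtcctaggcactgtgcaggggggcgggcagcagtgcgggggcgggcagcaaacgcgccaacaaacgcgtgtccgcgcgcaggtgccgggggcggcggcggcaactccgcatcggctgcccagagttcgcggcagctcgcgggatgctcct
Elmo1 after the start: gccagcagGAGGAAggaaGAGGAAgtgaga
Dock10 upstream: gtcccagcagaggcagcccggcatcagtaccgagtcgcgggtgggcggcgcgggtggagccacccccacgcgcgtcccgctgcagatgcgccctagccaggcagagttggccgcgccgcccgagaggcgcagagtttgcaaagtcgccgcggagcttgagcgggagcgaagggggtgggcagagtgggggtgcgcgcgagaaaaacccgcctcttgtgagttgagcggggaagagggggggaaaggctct
Dock2 upstream: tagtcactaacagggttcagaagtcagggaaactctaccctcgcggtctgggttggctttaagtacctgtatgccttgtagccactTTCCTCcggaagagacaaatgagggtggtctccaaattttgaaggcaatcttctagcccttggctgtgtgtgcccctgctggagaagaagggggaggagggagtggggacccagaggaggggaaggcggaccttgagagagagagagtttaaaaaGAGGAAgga
The motif was found 164 and 9 bases before the Dock2 start and at bases 29 and 39 after the Elmo1 start, and the Dock10 window did not hold these letters. Of the 12 windows of 300 bases listed for 8 members, 3 held the motif (1 each of Dock1, Dock2 and Elmo1), and 28.3% of all 32851 windows did. Elmo1 has 2 listed starts and Dock10 has 2, which counts of 3′ ends cannot tell apart. On GRCm38, Elmo1 (ENSMUSG00000041112) spans chromosome 13 from 20090596 to 20608353 (+), Dock10 (ENSMUSG00000038608) chromosome 1 from 80501073 to 80758527 (-) and Dock2 (ENSMUSG00000020143) chromosome 11 from 34226815 to 34783892 (-). Elmo1 overlaps Gm47664 on the same strand, so counts of that pair may be split between them. Exonic and intronic reads are not kept apart in the tables.

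In microglia-like cells, the scaffold gene Elmo1 fell most among the members, Dock10 and Elmo2 fell as well, and Dock2 rose. Values are UMIs per 1000000 (CPM) after TMM scaling of the sum over all microglia-like cells of a mouse (normalised CPM). Of 8 members tested, 3 were lower and 1 was higher in Arpc4ΔCx3cr1 mice at an adjusted p under 0.05 (edgeR's quasi-likelihood test, Benjamini-Hochberg over 12667 genes). In the same test 46.5% of all genes passed, 23.2% upwards and 23.4% downwards, so the members' share of 4 in 8 lay near that of all genes. The median difference was -0.15 (log2) over the 8 members and -0.01 over all genes tested. The values of the 4 control and 4 Arpc4ΔCx3cr1 mice did not overlap for 5 members, and for 44.4% of all genes.

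Elmo1 encodes the scaffold that binds DOCK1, DOCK2 and DOCK5. It had 1829, 1802, 1738 and 1732 normalised CPM in control mice 1 to 4, and 845, 1185, 1076 and 1039 in Arpc4ΔCx3cr1 mice 1 to 4. The groups were well apart, with the lowest control mouse above the highest Arpc4ΔCx3cr1 mouse. The means were 1775 ± 48.2 and 1036 ± 142 (SD, n = 4), a 1.71-fold lower level with a log2 difference of -0.78 ± 0.09 (SE, adjusted p = 4.03e-05, edgeR). Without Arpc4ΔCx3cr1 mouse 1 the Elmo1 difference was -0.69 ± 0.05 (adjusted p = 9.54e-08, edgeR). Its paralog Elmo2 was measured from far fewer molecules, 1059 UMIs over all mice against 102461 for Elmo1. It had 18.4, 16.1, 14.3 and 16.0 normalised CPM in control mice and 13.2, 11.9, 12.4 and 12.9 in Arpc4ΔCx3cr1 mice. Again no Arpc4ΔCx3cr1 mouse reached the lowest control, and the log2 difference was -0.35 ± 0.10 (adjusted p = 0.0128, edgeR). Empty droplets of the pool held Elmo2 at 13.1 CPM, near the 16.8 ± 1.66 CPM of control mice and above the 12.1 ± 0.488 CPM of Arpc4ΔCx3cr1 mice without TMM scaling, so the level in the latter is not read as expression. With 10% of each sum subtracted as ambient RNA the difference was -0.38 (adjusted p = 0.0130, edgeR).

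**Figure D1:**
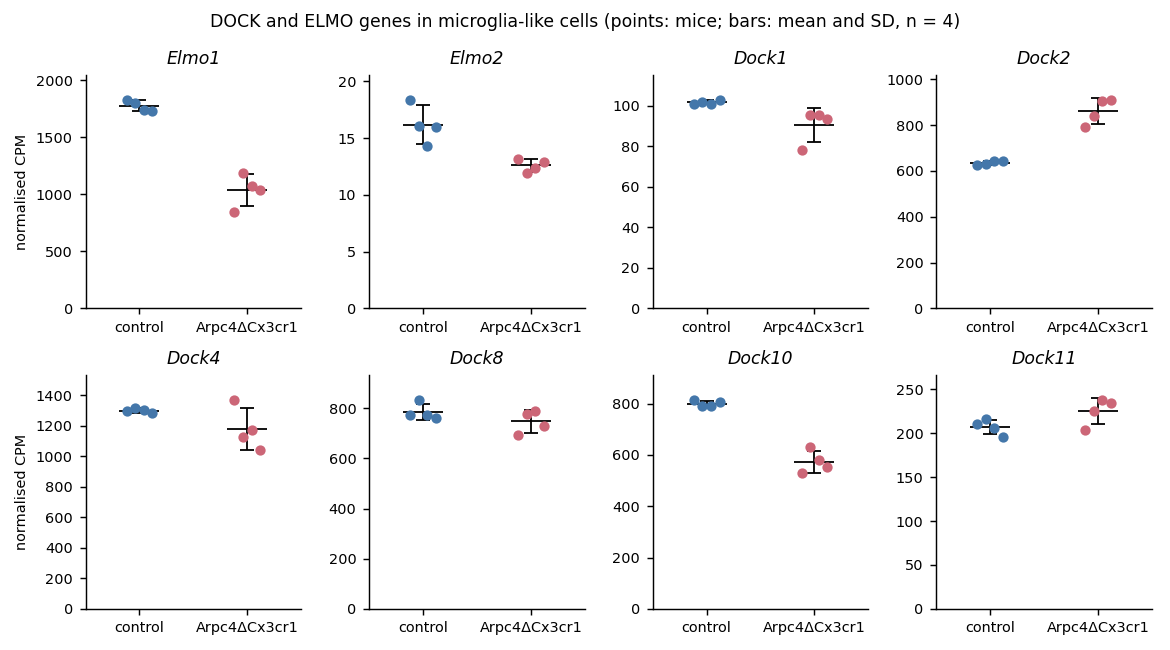
Normalised CPM of 8 members in microglia-like cells, 1 panel per gene with its own axis from 0, 1 point per mouse, and bars for the mean and SD of 4 mice. Elmo1, Elmo2 and Dock10 lie lower and Dock2 higher in every Arpc4ΔCx3cr1 mouse than in any control mouse.

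The ELMO-bound exchange factors did not move together. Dock2, the haematopoietic Rac activator needed for lymphocyte chemotaxis, had 624, 630.2, 643 and 641 normalised CPM in control mice and 792, 838, 903 and 911 in Arpc4ΔCx3cr1 mice. All 4 Arpc4ΔCx3cr1 mice lay above all controls, 1.36-fold on average, with a log2 difference of 0.44 ± 0.06 (adjusted p = 8.03e-05, edgeR). Dock1, the DOCK180 of engulfment, had 101, 102, 101 and 103 normalised CPM in control mice and 78.2, 95.4, 95.6 and 93.5 in Arpc4ΔCx3cr1 mice. The groups did not overlap, with Arpc4ΔCx3cr1 mouse 1 far below the other 3, but the log2 difference of -0.17 ± 0.07 missed the threshold (adjusted p = 0.0619, edgeR), and without that mouse it was -0.10 ± 0.05 (adjusted p = 0.0855, edgeR). Dock5, the third gene of this subfamily, was close to undetected, with 11 UMIs over all microglia-like cells of the 8 mice, and was not tested.

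Dock4, which acts on Rac and was among the members with most UMIs, had 1295, 1313, 1304 and 1279.7 normalised CPM in control mice. Arpc4ΔCx3cr1 mouse 1 lay above all of them at 1368, and mice 2 to 4 below them at 1125, 1171 and 1043. The log2 difference of -0.14 ± 0.08 did not pass (adjusted p = 0.151, edgeR). Without Arpc4ΔCx3cr1 mouse 1, the mouse with high Xist, it was -0.22 ± 0.05 and passed (adjusted p = 0.00160, edgeR).

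Among the Cdc42 activators, Dock10 had 815, 789.6, 790.0 and 805 normalised CPM in control mice and 529, 631, 581 and 553 in Arpc4ΔCx3cr1 mice. This 1.40-fold lower level left a wide gap between the groups (log2 difference -0.48 ± 0.06, adjusted p = 6.85e-05, edgeR). Its closest relative Dock11, on the X chromosome, had 210.4, 216, 206 and 196 normalised CPM in control mice and 204, 225, 238 and 234 in Arpc4ΔCx3cr1 mice, with overlapping values. Its log2 difference was 0.12 ± 0.06 (adjusted p = 0.119, edgeR), and 0.17 ± 0.05 without Arpc4ΔCx3cr1 mouse 1 (adjusted p = 0.0107, edgeR). Dock8, needed for the migration of lymphocytes and dendritic cells, had 786 ± 32.7 normalised CPM in control mice and 748 ± 44.8 in Arpc4ΔCx3cr1 mice, also overlapping (log2 difference -0.07 ± 0.06, adjusted p = 0.337, edgeR, and -0.03 ± 0.05 without Arpc4ΔCx3cr1 mouse 1).

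Scaling by total UMIs only shifted the median of all genes to -0.12 and brought Dock1 (-0.28, adjusted p = 0.00618), Dock4 (-0.25, adjusted p = 0.0164) and Dock8 (-0.18, adjusted p = 0.0230) past the threshold of edgeR's test as lower. The differences of Elmo1, Elmo2, Dock10 and Dock2 kept their direction and stayed past the threshold in 19 of 19 alternatives. Of the 8 members tested, 6 span over 200 kb. The 532 tested genes over 200 kb had a median log2 difference of 0.10, with 211 higher and 124 lower.

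The share of microglia-like cells with at least 1 UMI of a member moved in the same direction as the level for Elmo1, Elmo2, Dock10 and Dock2. Each cell was thinned to 2000 UMIs and shallower cells were left out, so that shares were compared at an equal count per cell. Elmo1 was seen in 91.0, 91.0, 89.7 and 89.8% of cells in control mice and in 67.5, 81.5, 78.5 and 75.6% in Arpc4ΔCx3cr1 mice. The difference of the Elmo1 means was -14.6 points, and -11.8 points without Arpc4ΔCx3cr1 mouse 1. Dock10 fell from 74.1 ± 0.464% to 60.5 ± 3.38% of cells and Dock2 rose from 65.1 ± 0.871% to 71.9 ± 3.35% (SD, n = 4). For these 3 members and for Dock1, Dock4, Dock8 and Elmo2 the groups did not overlap, and the exact two-sided permutation test over the 8 mice gave p = 0.0286, the smallest value it can give here (0.0367 after Benjamini-Hochberg adjustment over the 9 members). For all genes such shares of cells were not computed, while the levels of 44.4% of them did not overlap between the groups. Dock11 was at 30.3 and 30.6% (p = 0.943, exact permutation test). Thinned to 1000 UMIs, the differences of Elmo1 (-19.6 points), Dock10 (-12.8) and Dock2 (7.67) stayed at p = 0.0286 in the exact permutation test, but with fewer members at this smallest value the adjusted p was 0.0514, and 0 of 9 members passed. Without thinning they were -6.98, -7.57 and 5.52 points, again at p = 0.0286 (exact permutation test) and with an adjusted p of 0.0857. The thinned granulocyte-like cells, which are known to use some of these genes, held a UMI of Elmo1 in 34.2% (exact 95% binomial interval 23.7 to 46.0), of Dock10 in 14.5% and of Dock11 in 23.7% (14.7 to 34.8) of 76 cells. The levels of Elmo1 and Dock10 in granulocyte-like cells lay below those of empty droplets, so their shares there are not read as expression. Dock11 was seen in 20.5% (16.1 to 25.6) of 297 T cell-like cells. Both sets of cells were pooled over mice of both genotypes, so these intervals leave out the spread between mice. Of the 80 granulocyte-like cells, 32 came from Arpc4ΔCx3cr1 mouse 1. The median depth of the granulocyte-like cells before thinning was 10538 UMIs, against 4048 for microglia-like cells.

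Microglia-like cells fell into 11 clusters made without the members among the genes used, and control and Arpc4ΔCx3cr1 cells were mostly in different ones. In 4 clusters 2.31 to 6.16% of cells came from Arpc4ΔCx3cr1 mice (mice weighted equally), in 6 clusters 88.4 to 99.7% did, and 1 was mixed at 43.3%. An Arpc4ΔCx3cr1-majority cluster of 1516 cells held 1468 from Arpc4ΔCx3cr1 mouse 1. Since cells were grouped by their own expression, levels between clusters are a description with no test. A cluster was read only in mice that had at least 10 cells there, which removed Arpc4ΔCx3cr1 mouse 1 from the control-majority clusters.

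Elmo1 was low in Arpc4ΔCx3cr1 cells of the Arpc4ΔCx3cr1-majority clusters, at 811, 1059, 1014 and 988 CPM in mice 1 to 4 (CPM without TMM scaling, as in all values written as plain CPM). The few control cells in the same clusters (27, 40, 19 and 92 cells) had 1628, 1662, 1526 and 1331 CPM, all above the Arpc4ΔCx3cr1 cells beside them. In the control-majority clusters, control cells had 1841 to 1921 CPM. The Arpc4ΔCx3cr1 cells found there were not lower, with 1947 CPM in 248 cells of mouse 2 (95% Poisson interval 1861 to 2035, counting error only), 2073 in 35 cells of mouse 3 and 1859.6 in 17 cells of mouse 4. Dock10 followed the same order, with 508 to 576 CPM in Arpc4ΔCx3cr1 cells and 616 to 776 in control cells of the Arpc4ΔCx3cr1-majority clusters. In the control-majority clusters Dock10 was at 832 to 862 CPM in control cells and 958 to 1122 in Arpc4ΔCx3cr1 cells. Dock2 overlapped between control cells (795 to 897 CPM) and Arpc4ΔCx3cr1 cells (760.2 to 872 CPM) of the Arpc4ΔCx3cr1-majority clusters as a whole, among which the genotypes were spread unequally. In the deepest of these clusters Dock2 was at 875 and 1050.0 CPM in the 2 control mice with at least 20 cells there and at 1053 to 1138 in Arpc4ΔCx3cr1 mice. Arpc4 itself was at 171 to 200.3 CPM in the Arpc4ΔCx3cr1 cells of the control-majority clusters, between their 130.4 to 147 in the Arpc4ΔCx3cr1-majority clusters and the 228 to 247 of control cells beside them. The few control cells in the Arpc4ΔCx3cr1-majority clusters had 119.9 to 209 CPM of Arpc4, so its level did not separate the genotypes there. Apart from control cells in the control-majority clusters, these Arpc4 levels lay below the 229 CPM of the empty droplets. Mouse 2, which gave most of those cells, also had the lowest share of its tag counts in 1 tag (76.6%), and the part of mis-assigned cells was not tested.

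**Figure D2:**
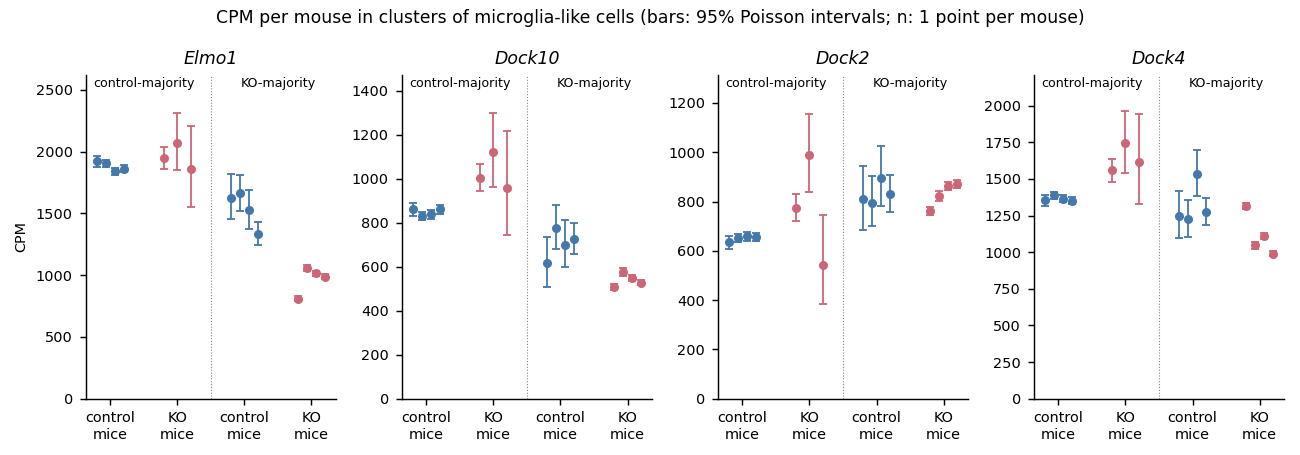
CPM of Elmo1, Dock10, Dock2 and Dock4 in the control-majority clusters (left of each dotted line) and Arpc4ΔCx3cr1-majority clusters (right, marked KO), 1 point per mouse (blue control, red Arpc4ΔCx3cr1) with 95% Poisson intervals. Elmo1 in Arpc4ΔCx3cr1 cells lies at 1859.6 to 2073 CPM on the left and 811 to 1059 on the right.

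Within these clusters depth moved with the level of Elmo1. Among the control-majority clusters, the mean Elmo1 level over control mice (those with at least 20 cells in the cluster) was 2484, 1703, 1176 and 589 CPM at median depths of 4986, 3784, 3062 and 2502 UMIs per cell. Among the Arpc4ΔCx3cr1-majority clusters the mean Elmo1 level over Arpc4ΔCx3cr1 mice was 1281 CPM at 5614 UMIs and 279 CPM at 2650 UMIs. Dock2 ranged likewise from 844 to 245 CPM in control mice of the former clusters and from 1096 to 202 CPM in Arpc4ΔCx3cr1 mice of the latter. The unnamed cells of low UMI count did not follow this order, with Elmo1 at 2512 ± 124 CPM in control mice at a median of 1211 UMIs. The part of depth in these levels was not tested. With every cell thinned to 2000 UMIs the differences between the genotypes in Elmo1 and Dock2 passed. Thinning keeps the composition of each cell, so this cannot decide the part of depth.

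One Arpc4ΔCx3cr1-majority cluster of 1443 cells stood out by Ms4a7, a gene of border-associated and reactive macrophages. Transcripts of haemoglobin also ranked high among those that set it apart. Within Arpc4ΔCx3cr1 mice, Elmo1 was at 478, 841, 657 and 806 normalised CPM in this cluster and at 835, 1176, 1054 and 1015 in the other microglia-like cells of mice 1 to 4. Elmo1, Dock2 and Dock4 were lower in the cluster in 4 of 4 mice, by -0.55 ± 0.17, -0.45 ± 0.10 and -0.43 ± 0.10 (log2 ± SE). In this comparison 3 of the 8 members tested and 1682 of 11656 genes passed edgeR's threshold. This fit had no term for the mouse, though both sets of cells came from the same 4 mice. With the mouse as a block 2761 genes passed. These counts are a description, since the cells were grouped by expression. In the fit without the block, leaving out a mouse gave 670 to 2167 genes, and the 3 member calls were lost without mouse 2, 3 or 4. Dock1, Dock8, Dock10 and Dock11 differed from the other cells by -0.02 to 0.12, and Elmo2 by -0.29 ± 0.22, lower in 3 of 4 mice. The median depth of the cluster was 2900.0 UMIs, and with cells split by an Ms4a7 UMI instead the differences of Elmo1, Dock2 and Dock4 were -0.29, -0.09 and -0.22. With all cells clustered at resolution 0.4, Ms4a7, haemoglobin transcripts and the CAM markers Pf4, F13a1 and Mrc1 marked a cluster named CAM-like. It held 1797 cells, 1475 of them from Arpc4ΔCx3cr1 mice. Its overlap with the cluster of 1443 cells was not tested, so the class of the latter may depend on the resolution.

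Across the 7 named cell classes of control mice, microglia-like cells had the highest Elmo1, Dock4, Dock10, Dock8 and Dock2, in each case above every mouse of the next class. Elmo1 was at 1840.0 ± 39.3 CPM in microglia-like, 912 ± 244 in T cell-like and 736 ± 68.4 in CAM-like cells (SD, n = 4), and the latter pair overlapped. The unnamed cells of low UMI count, left out of this order, lay higher than microglia-like cells in Elmo1 (2376 to 2667 CPM), Dock4 (1579.8 to 1669), Dock8 (1041 to 1203) and Dock10 (1106 to 1216), with no overlap between mice. Dock4 was at 1345 ± 16.1 CPM in microglia-like and 508 ± 59.4 in CAM-like cells. This ratio was wider than the step from the first to the next class for Elmo1, but the CAM-like level lay below the 549.6 CPM of empty droplets. Dock10 (829 ± 12.9) and Dock2 (658 ± 14.3) were followed by T cell-like cells at 624 ± 99.7 and 560.4 ± 33.6 CPM, and Dock8 (814 ± 35.1) by CAM-like cells at 603 ± 35.9 CPM. Dock11 led in microglia-like cells at 214 ± 7.77 CPM but overlapped the granulocyte-like cells at 176 ± 92.6. Dock1 was highest in CAM-like cells, at 127 ± 14.8 CPM above the 106 ± 2.16 of microglia-like cells without overlap.

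Dock5 and Elmo2 had another distribution. Dock5 was at 92.0 ± 25.1 CPM in granulocyte-like, 49.8 ± 23.8 in monocyte-like and 35.4 ± 15.9 in T cell-like cells. Monocyte-like values overlapped those of both other classes, while granulocyte-like (68.9 to 118) and T cell-like cells (25.6 to 58.9) did not overlap. In microglia-like cells Dock5 was at 0.130 ± 0.196 CPM. Elmo2 was highest in monocyte-like cells at 39.3 ± 11.8 CPM, overlapping proliferating cells at 24.3 ± 9.13, and had 16.8 ± 1.66 in microglia-like cells. Empty droplets of the pool, with at most 100 UMIs, held Elmo1 at 609, Dock4 at 549.6, Dock2 at 349, Dock8 at 340.1 and Dock10 at 328 CPM. The levels of Elmo1 in monocyte-like (313 ± 159), granulocyte-like (317 ± 159.5) and B cell-like cells (310.1 ± 174) were below that of the empty droplets and are not read as expression. The same limit holds for other members, such as Dock4 in CAM-like (508 ± 59.4) and T cell-like cells (489.7 ± 102). Dock2 (309 ± 78.0), Dock8 (275 ± 60.3) and Dock10 (321 ± 103) in monocyte-like cells were below the empty droplets as well. Dock5 was at 2.34 CPM in the empty droplets, far below its level in granulocyte-like cells.

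**Figure D3:**
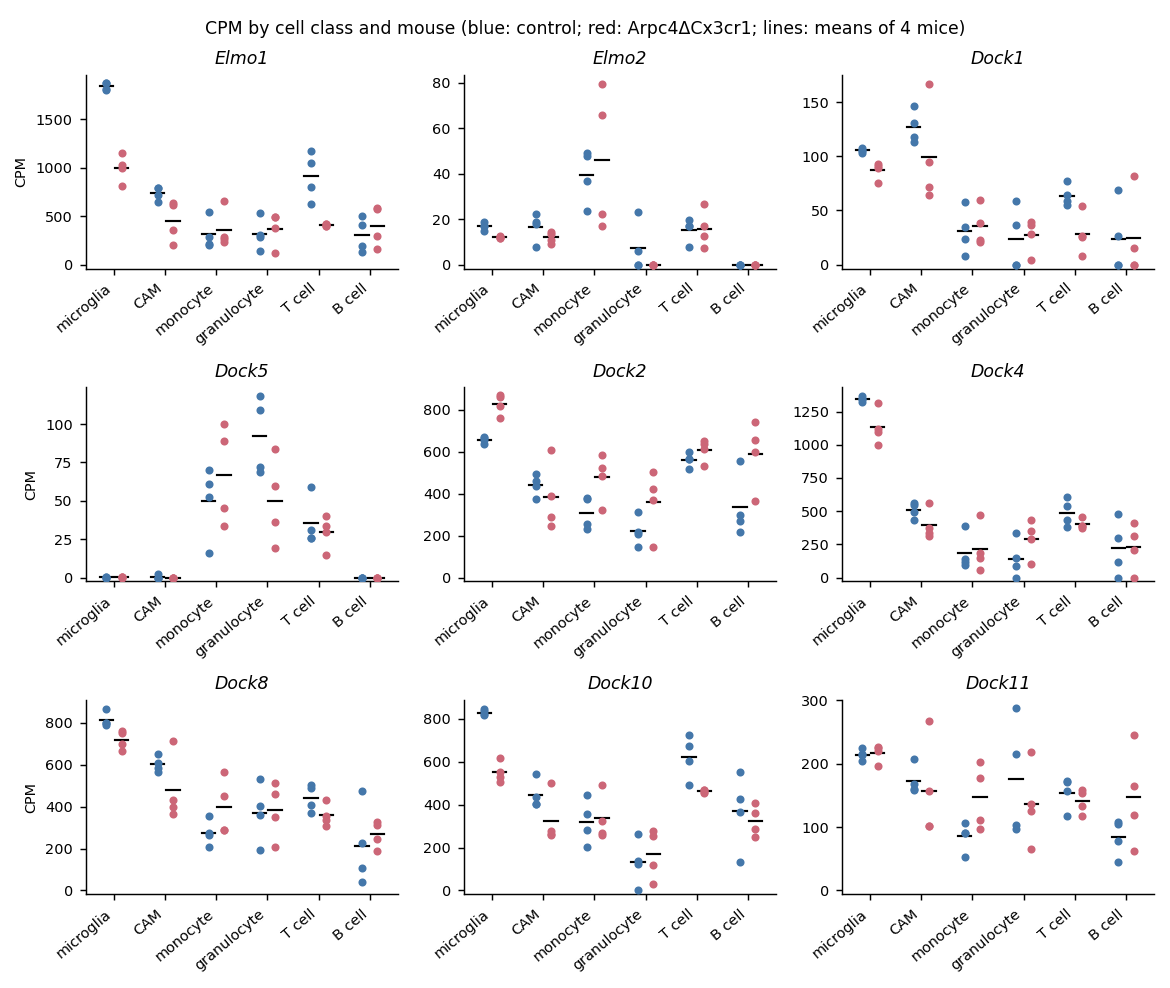
CPM of each member by cell class, 1 point per mouse (blue control, red Arpc4ΔCx3cr1) with lines at the means of 4 mice, and a separate axis per gene. Dock5 is near 0 in microglia-like cells. Its mean is highest in granulocyte-like cells in control mice and in monocyte-like cells in Arpc4ΔCx3cr1 mice. Elmo1 and Dock4 are highest in microglia-like cells.

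CAM-like cells, which the Cre driver also reaches, gave no member past the threshold (0 of 7 tested, against 1.25% of 3267 genes, edgeR). Of the 7, 1 member, Elmo1, had an unadjusted p under 0.05, and the share of all genes under that value is not given here. Elmo1 had 793, 786, 717 and 647 CPM in control mice and 203, 641, 353 and 620.1 in Arpc4ΔCx3cr1 mice. In Arpc4ΔCx3cr1 mice 1 and 3 Elmo1 lay below the 609 CPM of the empty droplets. Every Arpc4ΔCx3cr1 mouse lay below the lowest control, and the log2 difference was -0.73 ± 0.25 (adjusted p = 0.207, edgeR), with 22 to 44 cells per Arpc4ΔCx3cr1 mouse. Without Arpc4ΔCx3cr1 mouse 1 it was -0.49 ± 0.22 (adjusted p = 0.494, edgeR). All 7 members tested were below 0, with a median of -0.34 against 0.02 for all genes. The summed microglia markers in these cells were 7101 to 8827 CPM in control mice and 3989 to 6767 in Arpc4ΔCx3cr1 mice, and their part was not tested.

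Dock2 had 494, 436, 374 and 460.0 CPM in CAM-like cells of control mice and 244, 609, 288 and 389 in Arpc4ΔCx3cr1 mice. Its values overlapped and went both ways, unlike in microglia-like cells. In Arpc4ΔCx3cr1 mice 1 and 3 Dock2 lay below the 349 CPM of the empty droplets. Its genotype difference in CAM-like cells was lower than in microglia-like cells by -0.81 ± 0.23 (adjusted p = 0.0115, edgeR, 6.10% of 11976 genes past the threshold, median of all genes -0.18). The call was lost without control mouse 1 (-0.73, adjusted p = 0.0879), control mouse 4 (-0.79, adjusted p = 0.0604) or Arpc4ΔCx3cr1 mouse 3 (-0.64, adjusted p = 0.125). The other 7 members tested for this difference did not pass. These comparisons share their mice, controls included.

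T cell-like cells, which also held natural killer cell markers, showed 1 member of 7 tested past the threshold, against 3.88% of 4204 genes (edgeR). Elmo1 had 802, 1172, 626 and 1047 CPM in control mice and 395, 396, 419 and 417 in Arpc4ΔCx3cr1 mice. The groups did not overlap, the values of the Arpc4ΔCx3cr1 mice lay below the 609 CPM of the empty droplets, and the level was 2.13-fold lower (log2 difference -1.09 ± 0.17, adjusted p = 1.60e-04, edgeR). In the same cells 10 of 10 microglia markers fell too, with log2 differences of -2.03 for P2ry12 and -0.80 for Cx3cr1, and their summed level was 7345 to 8485 CPM in control and 3173 to 5202 in Arpc4ΔCx3cr1 mice. There were 0.636 Elmo1 UMIs per Cx3cr1 UMI in control and 0.524 in Arpc4ΔCx3cr1 T cell-like cells, 0.497 and 0.470 in microglia-like cells, and 0.353 in empty droplets. With 10% of each sum subtracted as ambient RNA the difference was -1.22 ± 0.18 (adjusted p = 3.69e-04, edgeR). The part of microglial RNA in this difference was not tested. The difference of Elmo1 in T cell-like cells did not pass against that in microglia-like cells (-0.23 ± 0.15, adjusted p = 0.648, edgeR), nor did that of any of the 9 members (3.53% of 12051 genes passed).

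Monocyte-like cells had no member past the threshold (0 of 8 tested, against 5.76% of 3297 genes, edgeR). At an unadjusted p under 0.05 there were also 0 of 8, and the share of all genes under that value is not given here. Dock2 was at 0.44 ± 0.23, Dock11 at 0.49 ± 0.31 and Dock5 at 0.54 ± 0.41 (log2 difference ± SE), each with a wide spread. Dendritic cell markers summed to 861 to 1362 CPM in these cells of control mice and 147 to 618 in Arpc4ΔCx3cr1 mice, and their part was not tested.

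**Figure D4:**
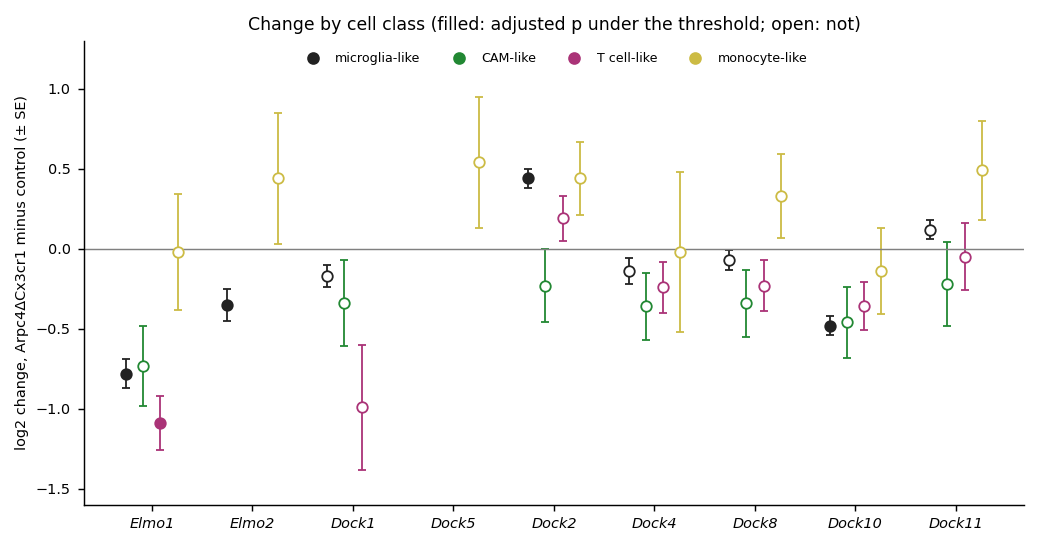
Log2 difference of each member, Arpc4ΔCx3cr1 minus control, in 4 cell classes with bars for the SE, where filled points passed the adjusted threshold. Elmo1 is filled in microglia-like and T cell-like cells, and the intervals are widest in monocyte-like cells.

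The genes around the DOCK and ELMO members moved in both directions in microglia-like cells. Of 67 listed genes, 58 were tested, 17 were higher and 20 were lower in Arpc4ΔCx3cr1 mice, beside the 23.2 and 23.4% of all genes. Of the other DOCK genes, Dock9, a Cdc42 activator related to Dock10 and Dock11, fell from 44.3 ± 1.63 to 19.6 ± 3.64 normalised CPM (log2 difference -1.18 ± 0.12). Dock6 rose from 6.30 ± 0.809 to 12.6 ± 0.955 normalised CPM (log2 difference 0.98 ± 0.12). Of the 5 GTPases listed, 4 fell. The substrates Rac1, Cdc42 and the low Rac3 were 1.26-fold, 1.19-fold and 2.09-fold lower, Rhog, which recruits ELMO, was 1.23-fold lower, and haematopoietic Rac2 did not pass (-0.19 ± 0.09, adjusted p = 0.0922, edgeR).

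Of 8 engulfment receptors and adaptors tested, the receptor kinase Axl rose 13.7-fold, from 19.3 ± 3.79 to 261 ± 23.9 normalised CPM. The phosphatidylserine receptor Stab1 and the integrin Itgb3 fell 2.22-fold and 2.13-fold, and the other 5, among them Mertk (-0.06 ± 0.08) and Crk (0.03 ± 0.08), did not pass. Of 15 other Rac and Cdc42 exchange factors, 6 rose and 5 fell. The Rac activator Tiam1 fell 3.60-fold, from 42.5 ± 2.39 to 11.8 ± 3.32 normalised CPM, and the Cdc42 activator Fgd2 fell 1.46-fold. Vav3 (0.932 ± 0.935 to 5.64 ± 3.20) and Kalrn (1.56 ± 0.328 to 5.03 ± 2.29 normalised CPM) rose from low levels.

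Of 15 GTPase-activating proteins and inhibitors, which switch these GTPases off, 5 rose and 3 fell. Arhgap15 rose 4.79-fold and Arhgap24 2.83-fold, while Srgap2 fell from 2015 ± 29.4 to 1063 ± 185 normalised CPM. Of 12 effectors, 3 rose and 5 fell. The WAVE complex genes Wasf2 and Cyfip1 fell 1.78-fold and 1.76-fold, Wipf1, a partner of WASP, rose 1.62-fold, and the scaffold Iqgap1 rose 5.86-fold, with 29.1 to 96.8 normalised CPM in Arpc4ΔCx3cr1 mice against 8.39 to 11.5 in control mice.

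**Figure D5:**
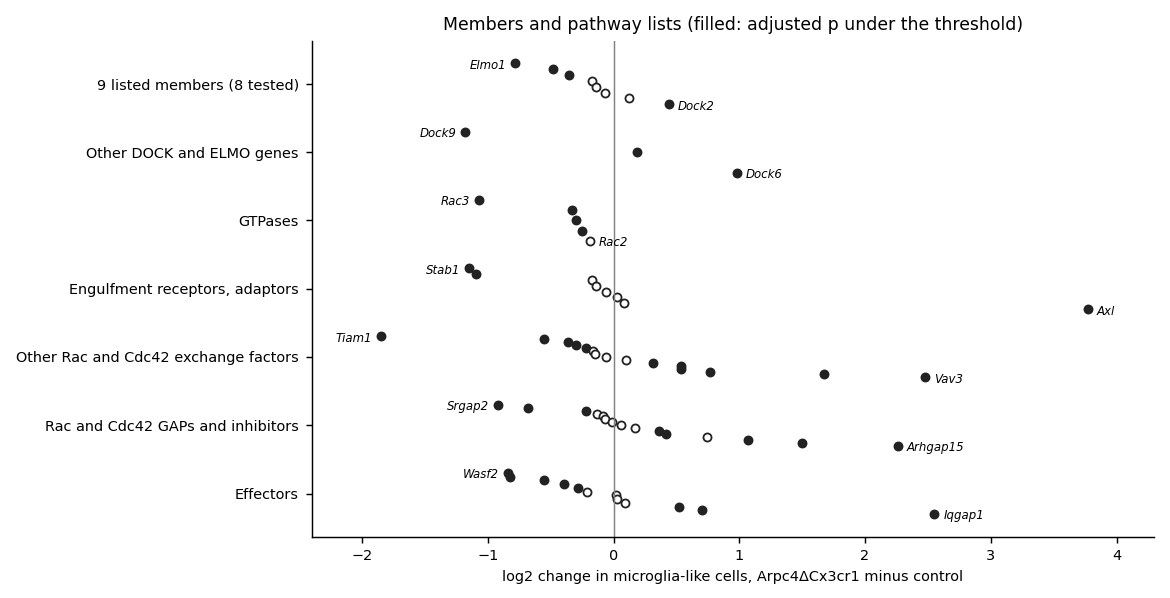
Log2 difference in microglia-like cells, Arpc4ΔCx3cr1 minus control, for the members and 6 lists of related genes, 1 point per gene, filled where the adjusted p passed the threshold. The points spread to both sides of 0 in every list except the GTPases, where all 5 lie below 0.

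The genes with the most similar profile over 14 groups (7 classes in 2 genotypes, among 6414 genes with at least 50 CPM in a group) are given as a description. The groups share 1 pool and the microglia-like cells share most of the RNA, so high correlations are common. Nearest to Elmo1 were 0610040J01Rik (Pearson r = 0.970), Pwwp2a (0.965) and Basp1 (0.962), and Basp1 was also nearest to Dock4 (0.979), before Lrch1 (0.976) and Rnf180 (0.974). Dock10 was closest to Ss18 (0.954), Txndc15 (0.937) and Nek7 (0.936), Dock2 to Lncpint (0.927), Tns1 (0.920) and Timmdc1 (0.913), and Dock8 to Adam17 (0.962), Iqsec2 (0.949) and Diaph2 (0.948). Tln2 (0.946) and Mcfd2 (0.943) were among the genes near Dock1. Dock11 lay nearest to Wls (0.927), Foxo3 (0.914) and Kdm4c (0.896), and Dock5 to S100a6 (0.951), Ltb4r1 (0.949) and Prr13 (0.929). Elmo2 stayed below 50 CPM in every group and was not compared.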

How the data were processed

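CD45+ brain cells of 4 control and 4 Arpc4ΔCx3cr1 mice were compared by mouse, with each mouse's group and number read from the labels. The authors aligned reads to mm10 with Cell Ranger (7.1.0 in the file headers, 6.1.2 in the submitters' processing notes), assigned cells by tag and deposited raw UMI counts per gene and cell, with 1 table per mouse and 1 of the unfiltered pool. The counts are neither normalised nor corrected for ambient RNA, and whether intronic reads were counted is not given in the sources used here.

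Cells with 200 or more genes and no more than 20% of UMIs from mitochondrial genes were clustered (Seurat 5.3.0, R 4.3.3, 10000 variable genes without the members, 20 principal components, resolution 0.8), and classes were named from fixed marker lists. No doublet caller was run. CPM are UMIs per 1000000 UMIs on genes. Counts were summed per mouse and class (at least 10 cells) and tested with edgeR 4.0.16 (quasi-likelihood, low-count filter, TMM, Benjamini-Hochberg, threshold 0.05), 4 mice per group, with the mouse as a block where 2 classes were compared. The mice were separate animals taken through 1 pooled library. Shares of cells were compared by exact permutation in scipy 1.17.1. Sums over microglia-like cells held 4185946 to 11589657 UMIs, and intervals cover counting error only.

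Alternatives were DESeq2 1.42.0, other scalings and filters, ambient subtraction, other cell sets and leaving out each mouse. The set with the cluster of mixed markers was chosen after seeing the data. The members, gene lists and tests were chosen with earlier results of these data known. Named genes were the members, Arpc4, sex-linked genes, up to 2 risers and 2 fallers of each pathway list by size, and the 3 nearest genes by profile; Rhog, Cdc42, Rac2, Mertk and Crk were named after their values were seen. Same-numbered mice did not deviate together (correlations -0.0745 to -2.45e-05), so the numbers do not pair mice. Protein sequences were not used here, and the values of some genes that the rule names are not reported here.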

Additional observations from a re-analysis of the deposited data

Results flagged for a closer look

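In 95 sets of 4 mice (a member in a class or as a share of cells, per genotype), 8 had 1 mouse set apart from the nearest by most of the range (Dixon's 95% limit), and chance flags about 1 in 20 such sets. Dock1 in microglia-like cells of Arpc4ΔCx3cr1 mouse 1 was at 78.2 normalised CPM, with 93.5 to 95.6 in the other 3. Arpc4ΔCx3cr1 mouse 2 stood apart with Dock10 in CAM-like cells (502 CPM, others 259 to 278), Elmo1 in monocyte-like cells (659.8 CPM, others 229 to 285) and the share of cells with an Elmo2 UMI among microglia-like cells (1.56%, others 2.17 to 2.24%). Control mouse 2 had Dock4 at 387 CPM in monocyte-like cells, with 97.6 to 139 in the others. Dock5 gave the remaining 3, with 2.23 CPM in CAM-like cells of control mouse 3 and shares of 0.136% and 0.0449% of microglia-like cells in control mouse 2 and Arpc4ΔCx3cr1 mouse 4, each against 0 in the other mice of the group.

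The genotype difference in CAM-like cells differed by a test of that difference itself from the one in microglia-like cells for Dock2, by -0.81 ± 0.23 (log2 ± SE, adjusted p = 0.0115, edgeR, 4 mice per group). Arpc4 differed in the other direction, by 0.78 ± 0.24 (adjusted p = 0.0223, edgeR). Each call was lost in 3 of the 8 fits that left out 1 mouse, with adjusted p up to 0.125 for Dock2 and 0.0947 for Arpc4 (edgeR). The cause of neither was tested.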

How the results depend on the processing

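In microglia-like cells 5893 genes passed, 5200 to 6411 when a mouse was left out, 5352 with DESeq2, 6566 with total UMIs and 4653 with thinned cells. Elmo1 ranged from -0.88 to -0.69, Dock10 from -0.59 to -0.44, Elmo2 from -0.47 to -0.30 and Dock2 from 0.33 to 0.48 (log2). Elmo1 in CAM-like cells passed in 1 alternative, with no filter on low counts (-0.82, adjusted p = 0.0433, edgeR), and Dock1 in T cell-like cells in 1, without Arpc4ΔCx3cr1 mouse 4 (-1.62, adjusted p = 0.0468, edgeR).

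Counts of changed genes moved by over 1.5 times with no filter on low counts in CAM-like cells (137, from 41) and T cell-like cells (282, from 163). Leaving out a mouse gave 12 to 67 in CAM-like, 104 to 173 in T cell-like and 44 to 223 (from 190) in monocyte-like cells. It gave 533 to 709 (from 731) and 333 to 423 (from 425) for the genotype differences of CAM-like and T cell-like against microglia-like cells. In the Ms4a7-high cluster it gave 670 to 2167 (from 1682), and cells split by an Ms4a7 UMI gave 361. For the shares of cells, 7 members passed, 0 at 1000 UMIs, 0 without thinning and 0 to 7 without a mouse. With the replicate number as a block, 5724 genes passed in microglia-like cells and 298 in monocyte-like cells, and the mouse as a block gave 2761 in the Ms4a7-high cluster. The block changed no call of a member.

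Differences that changed sign had not passed a test. When a mouse was left out, in monocyte-like cells Dock4 ranged from -0.54 to 0.64, Elmo1 from -0.43 to 0.38, Dock10 from -0.35 to 0.06 and Arpc4 from -0.16 to 0.05, and in T cell-like cells Dock11 ranged from -0.18 to 0.04. The difference between CAM-like and microglia-like cells ranged from -0.24 to 0.03 for Dock10, -0.26 to 0.06 for Elmo1 and -0.48 to 0.13 for Elmo2. That between T cell-like and microglia-like cells ranged from -0.16 to 0.09 for Dock4 and -1.76 to 0.90 for Dock5. In the Ms4a7-high cluster Arpc4 ranged from -0.16 to 0.00, and the shares of cells from -0.513 to 1.92 points for Dock11 and -0.0342 to 0.0112 for Dock5, which was at 0.0100 without thinning. In monocyte-like cells Dock4 was at 0.04 with ambient RNA subtracted, 0.02 with DESeq2 and 0.06 with the replicate block, and Elmo1 at 0.02 and 0.01 with the first of these 2. With cells split by an Ms4a7 UMI, Dock10 was at -0.03 (from 0.08) and Elmo2 at 0.06 (from -0.29). The cause of these changes was not tested. Depth limits Elmo2 and Dock5 in microglia-like cells (1059 and 11 UMIs) and every member in CAM-like cells, of which an Arpc4ΔCx3cr1 mouse had 22 to 44.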

Other observations

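A cluster of 134 cells was left unnamed because its leading genes held more markers of another class, and 121 of its cells came from Arpc4ΔCx3cr1 mice, 87 from mouse 2 and 30 from mouse 4. In these cells Elmo1 was at 1973 CPM in mouse 2 and 1799 in mouse 4, Dock4 at 1590.1 and 1278, and Dock10 at 1032 and 981. The GTPase-activating gene Arhgap15 and Mrc1, a marker of CAMs, were among the leading genes of the cluster. Arpc4 was at 136 and 156 CPM in the same cells, below the 229 CPM of the empty droplets. With this cluster added to the microglia-like cells, a choice made after seeing the data, 5850 genes passed.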
